A study of Homo sapiens with 2 samples.

Results

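The genes described here make, bind or read retinoic acid, the active form of vitamin A. Of the 9 genes of the set, 6 had a named cluster (the group of probes that reads a gene) in the table: the retinol dehydrogenases DHRS9, RDH10 and RDH11, the binding protein CRABP2, and the receptors RARA and RARG. They were found by gene symbol among 14526 named genes. DHRS3, RARB and RXRA had no named cluster there and were not analysed here. The members were chosen by role, on the measured difference of DHRS9 between the arrays, so their values are a description and not a test.

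RNA came from 2 cultures of NUGC4, a human gastric cancer cell line. One culture received an siRNA against ANO5 (anoctamin 5, a membrane protein), and the other a negative control siRNA. Both siRNAs were given at 20 nmol/l in a lipid reagent 24 h after seeding, so that both groups share the transfection. Each group is 1 array of 1 culture, the knockdown rests on a single siRNA in a single line, so the differences carry no replicate error and no test.

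In the classical pathway retinol enters the cell, is bound by cellular binding proteins and is either stored as an ester or oxidised to retinal by dehydrogenases. Retinal dehydrogenases then make retinoic acid irreversibly, and enzymes of the CYP26 family degrade it. CRABP2 carries retinoic acid to the nucleus, where receptors of the RAR family, paired with RXR receptors, act on genes through repeated half-sites in DNA. In the gut and other epithelia retinoic acid is known for its part in cell differentiation.

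The sequences before the transcript starts of DHRS9, RARA and CRABP2 are shown because the 2-fold count turns on DHRS9 and CRABP2 and because RARA encodes a reader of the signal. CYP26A1, a gene that retinoic acid is known to induce, is shown beside them for its receptor site. RefSeq lists 4 start windows for DHRS9, and windows 1 and 4 are printed. Each run is the 250 bases before a start in RefSeq's promoter table (GRCh38.p14), read 5′ to 3′ along the gene's strand. Capitals mark TATAAA in the first run. In the others they mark the receptor half-site, which was searched on both strands in 4 spellings: first AGGTCA, then the variant AGTTCA, then the variant GGGTCA, and last the variant GGTTCA. A half-site on the opposite strand shows as its reverse complement, for example TGAACT.
DHRS9, window 1, chr2:169066827-169067076, plus strand: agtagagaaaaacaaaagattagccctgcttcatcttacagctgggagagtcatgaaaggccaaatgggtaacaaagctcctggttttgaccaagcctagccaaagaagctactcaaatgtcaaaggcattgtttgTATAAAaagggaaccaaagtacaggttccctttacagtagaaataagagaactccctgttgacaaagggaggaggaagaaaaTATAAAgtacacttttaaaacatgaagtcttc
DHRS9, window 4, chr2:169080857-169081106, plus strand: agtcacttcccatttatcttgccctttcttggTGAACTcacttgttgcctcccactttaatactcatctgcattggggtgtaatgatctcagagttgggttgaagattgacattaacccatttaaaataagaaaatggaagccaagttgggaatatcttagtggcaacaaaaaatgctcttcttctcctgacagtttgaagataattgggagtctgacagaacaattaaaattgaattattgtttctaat
RARA, window 1, chr17:40308930-40309179, plus strand: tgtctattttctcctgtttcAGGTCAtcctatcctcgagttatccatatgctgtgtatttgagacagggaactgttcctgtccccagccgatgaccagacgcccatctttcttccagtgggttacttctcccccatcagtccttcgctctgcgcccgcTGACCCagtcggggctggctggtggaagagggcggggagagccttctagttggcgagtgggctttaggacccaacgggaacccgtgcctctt
CRABP2, chr1:156705785-156706034, minus strand: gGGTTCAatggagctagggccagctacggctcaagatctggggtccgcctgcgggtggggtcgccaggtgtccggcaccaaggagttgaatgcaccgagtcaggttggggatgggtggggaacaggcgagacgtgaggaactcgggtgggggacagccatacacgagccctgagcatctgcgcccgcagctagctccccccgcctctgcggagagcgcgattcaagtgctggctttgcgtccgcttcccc
CYP26A1, window 2, chr10:93073643-93073892, plus strand: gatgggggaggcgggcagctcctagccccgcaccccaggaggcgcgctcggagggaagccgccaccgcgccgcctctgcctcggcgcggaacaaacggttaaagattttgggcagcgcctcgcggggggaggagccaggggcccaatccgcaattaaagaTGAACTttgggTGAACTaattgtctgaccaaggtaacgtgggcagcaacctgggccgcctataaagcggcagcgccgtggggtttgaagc

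The 4 windows of DHRS9 were poor in G and C, at 29.6% to 39.2%, and held between 0 and 2 CG pairs each. The 6 windows of RDH11, CRABP2, RARA and RARG held 52.8% to 70.4% G and C and 8 to 18 CG pairs. RDH10 was left out of this comparison of windows, so nothing is said here of its sequence. Over all 35116 windows the median G and C content was 58.0%. TATAAA, searched on both strands, was found in 3 of the 4 DHRS9 windows and in 0 of those 6, against 10.7% of all windows. A half-site was found in 1 of the 4 DHRS9 windows, in 1 of the 3 RARA windows and in the window of CRABP2, and 33.8% of all windows hold one. No window of these 5 genes held 2 half-sites as a direct repeat with 1, 2 or 5 bases between them, arrangements that occur in 0.0968%, 0.0313% and 0.074% of all windows. Window 2 of CYP26A1 held the repeat with 5 bases between, seen above as a pair of TGAACT runs. These matches describe letters in 250 bases and say nothing of binding.

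ANO5 itself, the target of the siRNA, had a log2 signal of 3.67 in the ANO5 siRNA array, against 6.83 in the control array, which is 8.94-fold lower. For a guide to low signal, olfactory receptor genes were used, which most tissues do not express. The 95th percentile of the 105 such genes was 5.65 on the ANO5 siRNA array and 5.59 on the control array, called the olfactory level here. The ANO5 value in knocked-down cells lay under it. With values under that level set to it, ANO5 was 2.26-fold lower. All 6 epithelial markers (EPCAM, CDH1, KRT8, KRT18, KRT19, CLDN4) lay above the olfactory level on both arrays, as did MUC1, CDH17 and CDX2 of the gastric and intestinal list, while TFF1 did not. Of 10 markers in the table for fibroblasts, blood, fat and liver, 3 lay above it on both arrays, namely COL1A2, LYZ and HBA1. Of the marker lists, 3 genes passed 2-fold: CDH17 (1.17 on the log2 scale) and KRT19 (1.02) were higher in the ANO5 siRNA array, and LYZ (-1.08) was lower. They were 1 of 4 gastric and intestinal, 1 of 6 epithelial and 1 of 5 blood markers in the table. Fibroblast, fat and liver markers had 0. Over all named genes 16.7% passed 2-fold either way, and nothing is read from these marker counts. The part of these cell features in the results below was not tested. In such bulk samples a change in the make-up of cells and a change of RNA per cell cannot be told apart.

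Among the dehydrogenases, DHRS9 stood far from its fellow enzymes. DHRS9, which oxidises retinol to retinal and also acts on hydroxysteroids, had a log2 signal of 8.44 in the ANO5 siRNA array and 4.35 in the control array. The difference of 4.09 is 17.0-fold, and DHRS9 took rank 6 from the top among the 14526 named genes. Its control value lay under the olfactory level, so that the size of the fold depends on how low signal is treated. With values under that level set to it, DHRS9 was 7.19-fold higher (log2 difference of 2.85) and took rank 37. A filter on the mean of both arrays would pass DHRS9 only because of the ANO5 siRNA array, so all named genes were kept.

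RDH10, the retinol dehydrogenase that is required for retinoic acid synthesis in mouse embryos, had 9.52 in the ANO5 siRNA array and 9.99 in the control array, a log2 difference of -0.47. RDH11, a reductase and dehydrogenase of the endoplasmic reticulum, had 11.83 in the ANO5 siRNA array and 11.58 in the control array, a difference of 0.25. Both enzymes were above the olfactory level on both arrays and within 1.5-fold. The difference of DHRS9 exceeded that of RDH10 by 4.56 and that of RDH11 by 3.84 on the log2 scale. With values under the olfactory level set to it, these gaps were 3.32 and 2.60.

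CRABP2, which delivers retinoic acid to the receptors, had 4.52 in the ANO5 siRNA array and 3.53 in the control array. Its difference of 0.99 is 1.99-fold, just short of 2-fold. Both values lay under the olfactory level, so the arrays give no usable fold for CRABP2. DHRS9 and CRABP2 thus share a control value under that level, but only the DHRS9 signal in the ANO5 siRNA array lay above it.

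The receptors lay closer together. RARA had a log2 signal of 7.87 in the ANO5 siRNA array and 7.33 in the control array, a difference of 0.54 or 1.45-fold. RARG, the receptor type abundant in skin, had 8.54 in the ANO5 siRNA array and 8.74 in the control array, a difference of -0.20. Both were above the olfactory level on both arrays, and their differences had opposite signs.

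**Figure D1:**
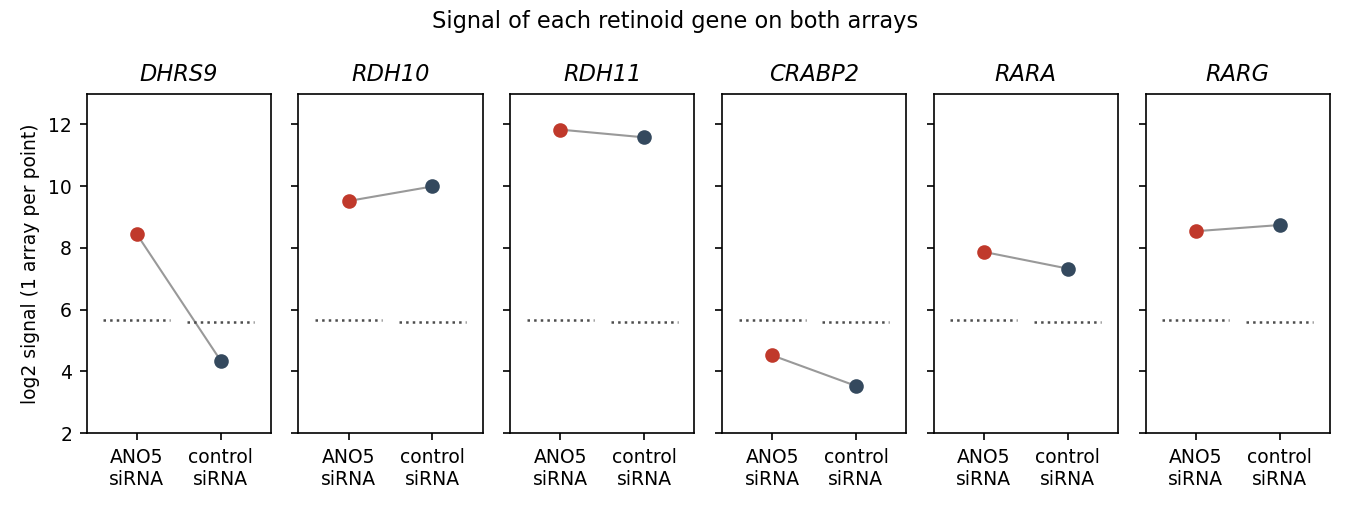
Log2 signal of the 6 retinoid genes (1 array per point, ANO5 siRNA in red on the left, control siRNA in dark blue on the right), with the olfactory level of each array as a dotted line (5.65 and 5.59). DHRS9 crosses that line, with 8.44 in the ANO5 siRNA array and 4.35 in the control array. CRABP2 stays under it, and the other 4 genes stay above it with differences from -0.47 to 0.54.

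By a fixed size of 2-fold, 1 of the 6 genes was higher in the ANO5 siRNA array (DHRS9) and 0 were lower. Over all named genes 8.33% were higher and 8.35% lower by that size. DHRS9 was in view when the set was chosen, so nothing is read from this count. At 1.5-fold, 2 of the 6 genes were higher (DHRS9 and CRABP2) and 0 lower, beside 18.6% and 16.6% of all named genes, though the CRABP2 values lie under the olfactory level and give no usable fold. At 3-fold, DHRS9 was the 1 gene higher and 0 were lower, beside 2.56% and 3.72%. The median difference of the 6 genes, DHRS9 and CRABP2 among them, was 0.395, beside 0.03 for all named genes. The differences of the other 5 genes ran from -0.47 to 0.99, the latter that of CRABP2. Those of the 4 genes above the olfactory level on both arrays ran from -0.47 to 0.54.

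**Figure D2:**
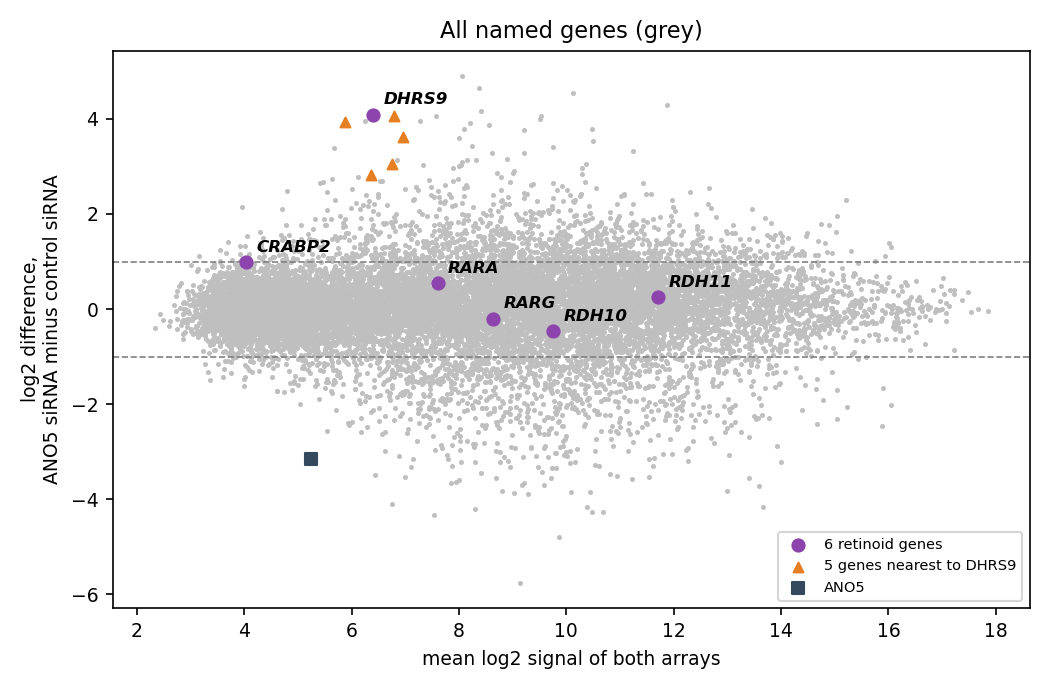
Log2 difference (ANO5 siRNA minus control siRNA) against the mean log2 signal of both arrays for all 14526 named genes (grey points), with the 6 retinoid genes, the 5 genes nearest to DHRS9 and ANO5 marked. Dashed lines stand at 2-fold. DHRS9 lies at 4.09, whereas RARG, RDH11, RARA and RDH10 lie between the lines, as does CRABP2 at 0.99.

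The genes most like DHRS9 were sought by distance in the plane of both log2 signals, which rests on 2 values per gene. Nearest by the rule were CIDEC, a lipid droplet protein (distance 0.56), SUSD2, a membrane protein (0.74), and APOBEC1, an RNA-editing cytidine deaminase of the gut (0.87). AGPAT4, an acyltransferase of phospholipid synthesis, and SIPA1, a GTPase-activating protein, followed at 0.89 and 0.91. C11orf86 lay closer still at 0.22, but the rule leaves out uncharacterised loci. CIDEC had 8.82 in the ANO5 siRNA array and 4.76 in the control array, and SUSD2 had 7.85 in the ANO5 siRNA array and 3.91 in the control array. All 6 of these genes, like DHRS9, had control values under the olfactory level, which follows from the choice of genes this near to DHRS9. They were picked for likeness in values alone.

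The neighbours of DHRS9 on chromosome 2 were described next. Of the 5 protein-coding genes on each side in RefSeq's order, 6 were in the table. By 2-fold, 0 of them were higher and 1 was lower, beside 8.33% and 8.35% of all named genes. Nothing is read from counts among so few genes. SPC25, a kinetochore subunit, had 7.61 in the ANO5 siRNA array and 9.34 in the control array, a difference of -1.73. NOSTRIN, a trafficking protein of nitric oxide synthase, differed by 0.67, BBS5, of the ciliary BBSome, by 0.57, and CERS6, a ceramide synthase, by 0.34. FASTKD1, a mitochondrial protein, differed by 0.19 and PPIG, a cyclophilin, by 0.01. None of these 6 thus approached the 4.09 of DHRS9, a gene that was chosen for its difference.

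The wider pathway was described with lists by role. Of 89 further genes, 59 were in the table. In the ANO5 siRNA array 10 reached 2-fold upward and 4 downward. These 14 make 23.7%, beside 16.7% of all named genes. Of the 59 genes, 39 lay above the olfactory level on both arrays, of which 9 were higher and 2 lower. Among all named genes above that level on both arrays, 10.5% were higher and 10.7% lower. The lists also cover coregulators, RXR partner receptors and genes that share the DHRS name. From these came NCOA1, NCOA2, KAT2B, PPARD and DHRS12 among the higher genes, and VDR, NR4A1 and DHRS1 among the lower. The lists were chosen with earlier results of these data known, so nothing is read from these shares. The median difference of the 59 was 0.20, beside 0.03 for all named genes, and both medians were 0.0 with values under the olfactory level set to it. That floor puts genes under it on both arrays at a difference of 0.0, here 16 of the 59 and 3943 of all named genes. It thereby draws both medians to that value, so they do not show where the 0.20 comes from.

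Other enzymes that act on retinol or retinal include the class I alcohol dehydrogenases, which oxidise ethanol as well as retinol. ADH1B had 10.24 in the ANO5 siRNA array and 8.21 in the control array, 4.08-fold higher. ADH1C had 11.47 in the ANO5 siRNA array and 9.73 in the control array, 3.34-fold higher, and ADH1A differed by 0.78. These 3 genes are close paralogs on chromosome 4, and signal shared between their probes would make them less than 3 separate measurements. Among the 10 listed oxidoreductases in the table, these 2 (ADH1B and ADH1C) were higher by 2-fold and 0 were lower, beside 8.33% and 8.35% of all named genes. DHRS7 had 11.48 in the ANO5 siRNA array and 10.70 in the control array. DHRS4, a peroxisomal reductase of retinal, had 7.77 in the ANO5 siRNA array and 8.70 in the control array. The windows before the starts of ADH1B and ADH1C held 32.4% and 35.6% G and C, within the range of DHRS9, and 1 and 6 CG pairs. Neither held TATAAA, and that of ADH1B held a half-site. Windows of the other listed oxidoreductases were not described, so nothing is read from this likeness in G and C.

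Of 9 genes that share the DHRS name, all in the table, DHRS12 was higher and DHRS1 lower by 2-fold. With 8.33% of all named genes higher and 8.35% lower, 1 each way among 9 is near the background. DHRS12 had 6.80 in the ANO5 siRNA array and 5.52 in the control array, so that its control value lay under the olfactory level. DHRS1 had 4.58 in the ANO5 siRNA array and 5.70 in the control array, and with that level as a floor it differed by -0.05. DHRS4L2, a near copy of DHRS4, differed by -0.92. The 9 had a median of 0.12 and a highest difference of 1.28.

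Uptake and storage genes followed. RBP4, the carrier of retinol in blood, had 9.71 in the ANO5 siRNA array and 8.41 in the control array, 2.46-fold higher. PNPLA4, a lipase that can act on retinyl esters, had 9.18 in the ANO5 siRNA array and 8.03 in the control array, 2.22-fold higher. These were 2 of the 6 listed genes in the table, and 0 were lower by 2-fold, beside 8.33% and 8.35% of all named genes. SCARB1, a lipoprotein receptor, and BCO1, which cleaves beta-carotene to retinal, differed by 0.34 and 0.33. LRAT, which makes retinyl esters, differed by 0.81, with a control value of 4.95 under the olfactory level.

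Of the 5 listed genes of the step that makes retinoic acid, the 2 above the olfactory level on both arrays differed far less than DHRS9. For the step that degrades it the arrays gave no usable fold. ALDH1A3, a retinal dehydrogenase, had 9.53 in the ANO5 siRNA array and 9.24 in the control array. ALDH1A2 had 5.92 in the ANO5 siRNA array and 5.63 in the control array, a difference of 0.29. ALDH1A1 and ALDH8A1 lay under the olfactory level on both arrays, as did AOX1, an aldehyde oxidase, at 3.1 in the ANO5 siRNA array and 4.19 in the control array. CYP26A1 had 4.61 in the ANO5 siRNA array and 3.72 in the control array, and CYP26B1 had 4.21 in the ANO5 siRNA array and 5.02 in the control array. All 4 CYP26 values lay under the olfactory level, which leaves no usable fold for either enzyme. FABP5, which carries retinoic acid to PPARD, differed by -0.73, and RXRB by 0.01.

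Among 9 coregulators of nuclear receptors in the table, 3 were higher and 0 lower by 2-fold, beside 8.33% and 8.35% of all named genes. All 9 lay above the olfactory level on both arrays. NCOA1, a coactivator, had 8.59 in the ANO5 siRNA array and 6.94 in the control array, 3.14-fold higher. KAT2B, an acetyltransferase, was 2.89-fold higher and NCOA2, a coactivator, 2.77-fold higher. MED1, a Mediator subunit, differed by 0.30, HDAC3 by 0.22 and PRAME, a repressor of RAR signalling, by 0.20.

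Of the 9 RXR partner receptors in the table, 1 was higher and 2 were lower by 2-fold, beside 8.33% and 8.35% of all named genes. PPARD, a receptor for fatty acids, had 9.16 in the ANO5 siRNA array and 7.70 in the control array, 2.75-fold higher. VDR, the vitamin D receptor, had 12.46 in the ANO5 siRNA array and 13.56 in the control array, 2.14-fold lower. NR4A1, an orphan receptor, was 2.35-fold lower. PPARG and THRA differed by 0.20 and 0.23.

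Known target genes of retinoic acid had no common direction. Of 13 in the table, 1 was higher by 2-fold, which is 7.69%, close to the 8.33% of all named genes, and 0 were lower, beside 8.35%. Their median difference was 0.13. MEIS2, a homeodomain factor, had 10.73 in the ANO5 siRNA array and 9.41 in the control array, 2.50-fold higher. TGM2, tissue transglutaminase, had 6.40 in the ANO5 siRNA array and 7.38 in the control array, a difference of -0.98, opposite in sign to MEIS2. NRIP1, a corepressor, differed by 0.42. Of the 13, 6 lay under the olfactory level on both arrays, among them CYP26A1 and CYP26B1, and 5 lay above it on both.

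**Figure D3:**
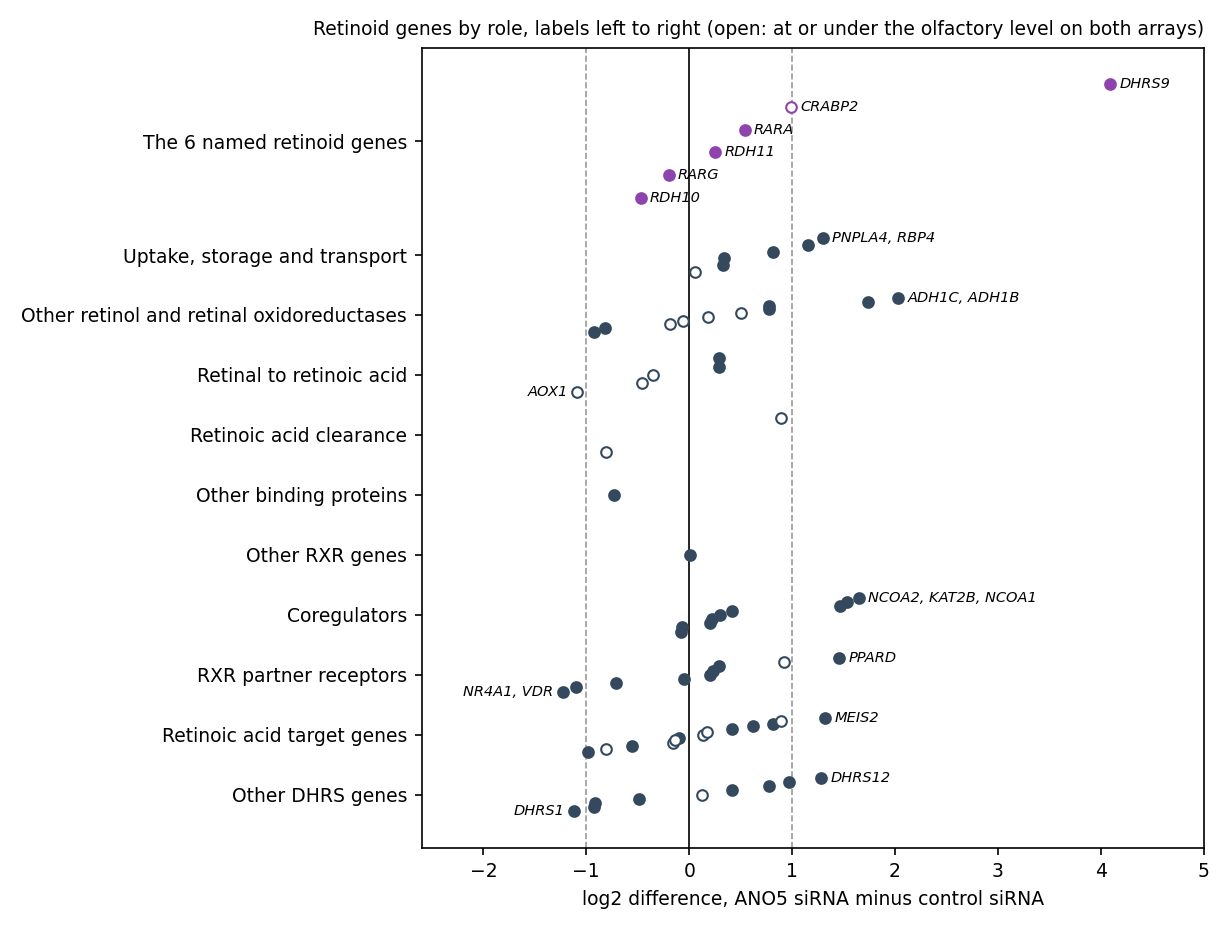
Log2 difference (ANO5 siRNA minus control siRNA) of the 6 retinoid genes and of each list by role, 1 point per gene, with dashed lines at 2-fold and open points for genes at or under the olfactory level on both arrays. Names beside a row run from left to right. DHRS9 at 4.09 lies beyond every other point, of which the next is ADH1B at 2.03.

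The size of the DHRS9 difference depended on the treatment of low signal. Centring, 75th percentile scaling, quantile normalization and loess gave 4.07 to 4.10, whereas adding 32 to the linear signal gave 2.86. The differences of RDH10, RDH11, RARA and RARG kept their sign and stayed within 2-fold in all of these. RDH10 ran from -0.57 to -0.45, RDH11 from 0.11 to 0.26, RARA from 0.46 to 0.55 and RARG from -0.27 to -0.19.

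**Figure D4:**
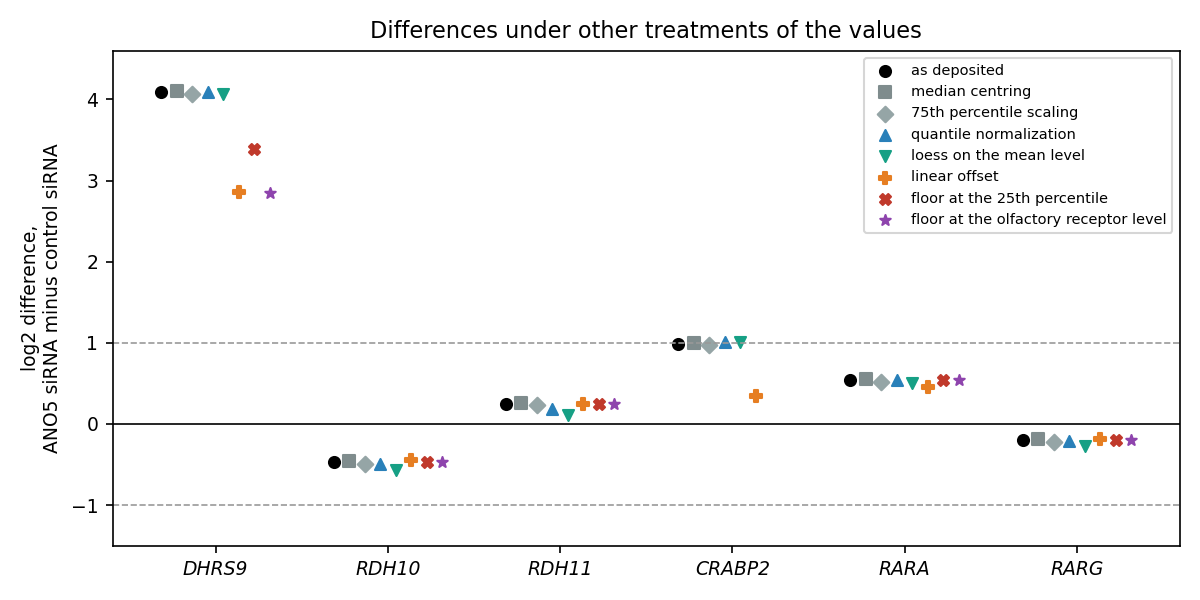
Log2 difference (ANO5 siRNA minus control siRNA) of each retinoid gene as deposited and under 7 other treatments of the values, 1 marker per treatment, with dashed lines at 2-fold. DHRS9 keeps to 2.85 or more in every one, CRABP2 moves between 0.34 and 1.01 and has no marker under either floor, and the other 4 genes stay within 2-fold.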

How the data were processed

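RNA of 1 culture per group was read on 1 array each. The authors deposited 1 value per array for 17345 clusters, from 2.13 to 18.15, read here as log2 signal because of this range. Agilent Feature Extraction 12.0.3.1 is named per the submitters' processing notes, whereas the cluster identifiers have another maker's form. For background correction, normalization, log base and the clusters' build, no label or header names a method (not given in the sources used here). The array medians were 7.68 (ANO5 siRNA) and 7.69 (control). The number of arrays limits the precision.

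The platform's annotation named 14544 clusters with 1 gene each, 0 with several, and left 2801 without one. Of 16 genes with several clusters the one with the highest mean was kept. Values were used as deposited. Genes were counted at 2-fold, without a test or filter. Named genes were the members, ANO5, list genes at 2-fold or more plus up to 2 further genes per list with the highest mean, the 5 nearest genes and the neighbours of DHRS9. A few others (ADH1A, LRAT, ALDH1A1, ALDH8A1, PRAME, C11orf86, the markers) were named after their values were seen. Members and lists were chosen with earlier results of these data known. Counting, loess and quantile steps were tested on simulated data. Alternatives were 4 scalings, the median over clusters, a linear offset of 32, floors at the 25th percentile of each array and at the 95th percentile of its olfactory receptor genes, sizes of 1.5-fold and 3-fold, and a filter at the 33rd percentile of mean level. A gene at the floor on both arrays was given no difference of its own. In the medians and counts of lists and of all named genes it stayed in, with a difference of 0. Python 3.11.15, numpy 2.4.6, pandas 2.3.3 and statsmodels 0.14.6 (loess, span 0.4) were used.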

Additional observations from a re-analysis of the deposited data

How the results depend on the processing

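DHRS9 differed by 2.86 with the linear offset, 3.39 with the floor at the 25th percentile and 2.85 with the floor at the olfactory level, beside 4.09 as deposited, because these settings act on its low control value. CRABP2 reached 1.0 with median centring and 1.01 with quantile normalization and with loess, so that 2 of the 6 genes were then higher by 2-fold, and it was 0.34 with the linear offset. At 1.5-fold, 2 of the 6 genes were higher as well, beside 18.6% of all named genes, since the size itself changed. These CRABP2 values lie under the olfactory level, and at either floor on both arrays, so its place in these counts carries no usable fold. Of the 59 genes of the wider lists, 17 were higher and 11 lower at 1.5-fold, beside 18.6% and 16.6% of all named genes. At 3-fold, 3 were higher and 0 lower, beside 2.56% and 3.72%. The count of lower genes was 2, in place of 4, with the linear offset, with both floors and with the filter, which act on genes of low signal, but 5 with 75th percentile scaling and 6 with loess. The median of those lists ran from 0.0 (olfactory floor) and 0.05 (25th percentile floor) to 0.29 (filter), beside 0.20 as deposited. The median over clusters could not move the 6 genes, which have 1 cluster each. No scaling moved the median of all named genes by over 0.1. No paired analysis was possible because each group has 1 array, and leaving out an array leaves no comparison.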
